A study of Mactra quadrangularis with 2 samples.

Results

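Of 124752 unigenes measured in digestive glands of Mactra veneriformis, a clam (Mactra quadrangularis in the organism label), 79 carried the name of a transcription factor in the authors' table of called unigenes. A unigene is a transcript contig assembled without a genome. The 79 were found by words in their protein names (transcription factor, zinc finger protein, homeobox, forkhead, SOX, T-box, paired box, GATA, helix-loop-helix, Krueppel, ETS). These were read in the first Nr match or the Swiss-Prot match, which 4337 of the 17625 called unigenes had. The words matched 84 unigenes, and 5 were dropped as nuclear receptor, ecdysone or transposon entries. No member was named for SOX or a paired box.

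The clams had been exposed for 3 days to the flame retardant BDE-47, a brominated diphenyl ether, added to aerated aquaria in DMSO (5 µg/L nominal, 0.05% DMSO by volume). Control clams received 0.05% DMSO without BDE-47. The series text gives 3 replicates of 30 clams per group and pooling of 30 glands for each RNA extraction. Only 1 library per group is in the tables, and the sources used here do not say which replicates went into it. The BDE-47 library held 15.9 M fragments (M for mega) and the control library held 15.6 M fragments. No difference below therefore has a replicate check, and every interval is an exact 95% counting interval that covers counting error only.

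Transcription factors are proteins that bind DNA, mostly at promoters and enhancers, and set how often nearby genes are copied into RNA. They are grouped by their DNA-binding fold, such as the homeodomain, the ETS domain or the C2H2 zinc finger. Because a small amount of such a protein can be enough, their transcripts are often scarce. In molluscs the digestive gland takes up and digests food, stores reserves and handles foreign compounds. As it was sampled whole, fewer cells of a type and less RNA per cell cannot be told apart in these libraries.

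A unigene was counted as higher or lower in BDE-47 when 0.1 had been added to both FPKM values and their log2 ratio reached 1 in size, at least 20 fragments were counted over both libraries, and the counting interval of the ratio excluded 1. FPKM is a level corrected for the length of the unigene and for the fragments counted in the library. By this rule of size 22 members were higher in BDE-47, 51 were lower and 6 did not pass. Of the 89164 unigenes that reached 20 fragments, members or not, 12.4% were higher and 16.2% lower. Every member was in the authors' table because its own ratio had passed the authors' threshold, so the number of members that passed says nothing about transcription factors. Of all unigenes, 6.09% were up and 8.04% down in the authors' deposited table. Among the described unigenes of that table past the rule of size 36.1% were higher and 63.9% lower, and among the members past it 30.1% were higher.

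The members were scarce transcripts. Their median FPKM was below that of the other described called unigenes in BDE-47 and above it in the control. Of the 79 members, 63 had less than 10 FPKM in both libraries, a share not counted for the others. The median FPKM of the members was 2.50 in BDE-47 and 4.94 in the control, against 2.93 in BDE-47 and 4.62 in the control for the other described called unigenes. Their median count was 167 fragments over both libraries, against 147 for the others. The median log2 ratio was -1.18 for the members and -1.19 for the others, while the median size of the ratio, without its sign, was 1.44 for the members and 1.70 for the others. The median log2 ratio of all unigenes with at least 20 fragments was -0.11. Only 4 of the higher and 12 of the lower members had a log2 ratio of 2 or more in size. More members were lower than higher, as in the rest of the described table, and the plot of fragments per library shows them on both sides of equal shares.

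**Figure D1:**
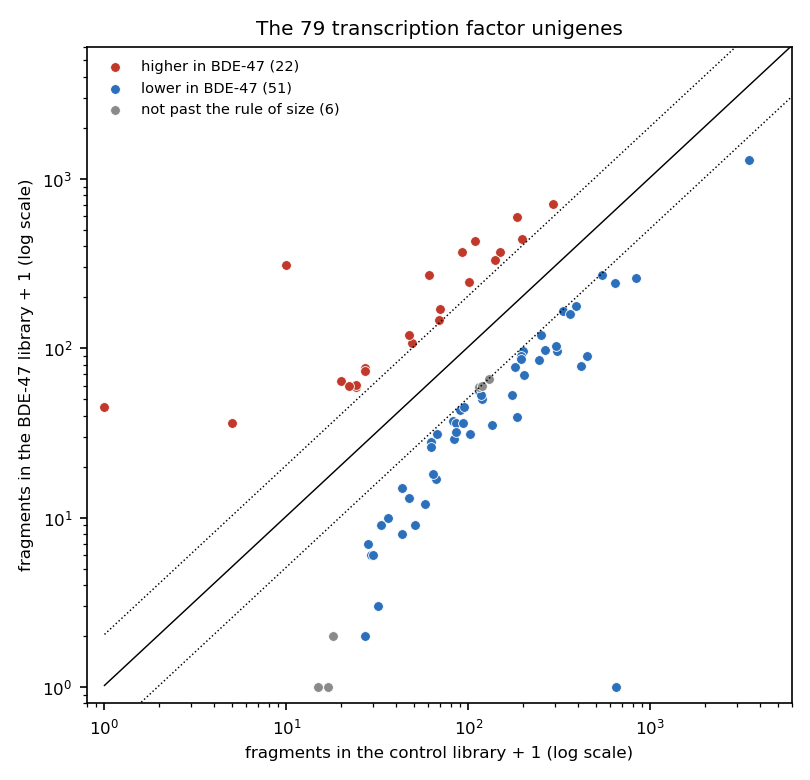
Fragments of each of the 79 members in the BDE-47 library (vertical axis) and in the control library (horizontal axis), each plus 1 and on a log scale. The solid line marks equal shares of the library totals and the dotted lines a 2-fold difference. Of the points, 22 lie above as higher in BDE-47 and 51 below as lower, and the largest counts belong to CL12178.Contig1.

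The names do not all stand for DNA-binding regulators, and the 79 were therefore sorted by role from their Nr, Swiss-Prot and KEGG names, a sorting made after the values were seen. Of the 79, 56 had names of sequence-specific or general transcription factors. These were 27 C2H2 zinc finger unigenes and 29 of other families, with 17 higher, 34 lower and 5 not past the rule. The other 23 had 5 higher, 17 lower and 1 not past. Both sets thus held more lower than higher unigenes, as did all described called unigenes. The best Nr match was in the Pacific oyster Crassostrea gigas for 36 members (45.6%), and for 48.9% of all described called unigenes.

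**Figure D2:**
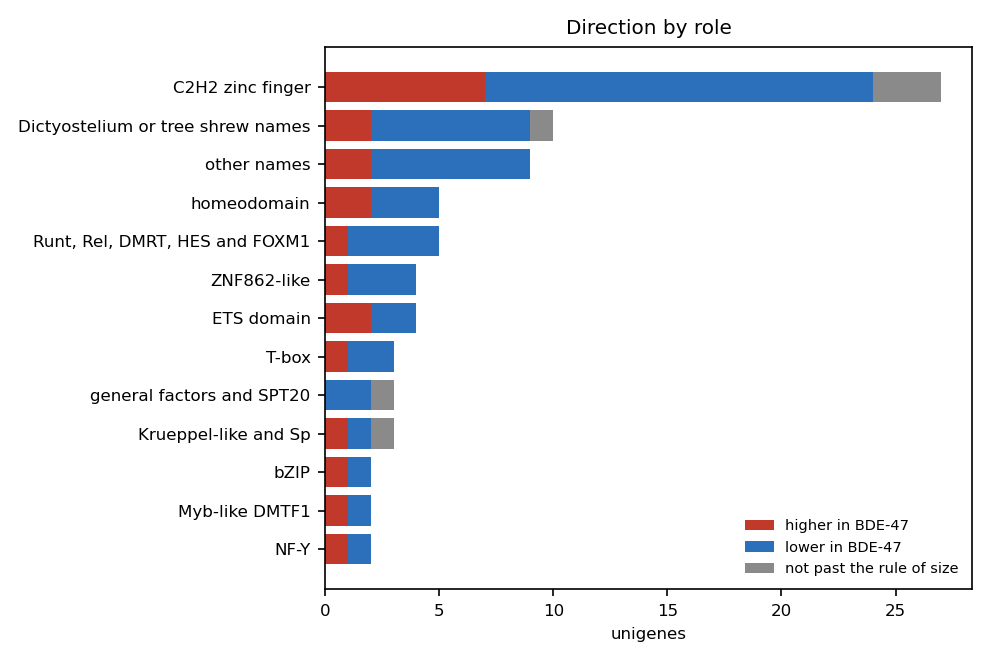
Number of member unigenes (horizontal axis) by role (vertical axis), split into higher in BDE-47, lower in BDE-47 and not past the rule of size. C2H2 zinc finger unigenes are the largest role, with 7 higher, 17 lower and 3 not past.

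Homeodomain regulators, which pattern the body and specify cell types, went both ways, with 2 unigenes higher and 3 lower in BDE-47. An engrailed contig (CL878.Contig4) had 367 fragments in BDE-47, against 91 in the control, a ratio of 3.95 (3.13 to 5.02). Engrailed sets segment and compartment borders in flies, and in mollusc embryos it is expressed around the shell-forming field. This contig held 4.64% of the fragments of its cluster of 8 contigs, which summed to 4697 fragments in BDE-47 and 5164 in the control, a log2 ratio of -0.17. The named contig and its cluster thus had ratios of opposite sign, and the cluster sum did not pass the rule.

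A Hox4-like unigene (Unigene54906), of the family that gives position along the body axis, had 59 fragments in BDE-47, against 21 in the control, a ratio of 2.75 (1.65 to 4.77). A pair of unigenes named for paired mesoderm homeobox proteins, which act in embryonic mesenchyme in mammals, were both lower. Unigene33850 had 28 fragments in BDE-47 and 82 in the control, and Unigene2132 had 9 in BDE-47 and 35 in the control.

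T-box factors were represented by TBX20 alone, a regulator of heart development in vertebrates and flies. A separate unigene of that name (Unigene9511) had 240 fragments in BDE-47, against 639 in the control, 2.72-fold lower (2.34 to 3.17). The contigs of cluster CL12984 split. CL12984.Contig1 had 102 fragments in BDE-47, against 301 in the control, and was 3.01-fold lower (2.40 to 3.81). CL12984.Contig2 had 107 fragments in BDE-47, against 48 in the control, and was 2.18-fold higher (1.54 to 3.14). Together they had 209 fragments in BDE-47 and 349 in the control, a log2 ratio of -0.77, which is not past the rule. In the control Contig1 was the more abundant of the pair by FPKM (7.36, against 1.60 for Contig2), and in BDE-47 Contig2 was (3.50, against 2.44 for Contig1).

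ETS factors, which read out growth factor and kinase signals or mark epithelial and blood lineages, had 2 unigenes higher and 2 lower. An Elk unigene (Unigene20499, with the Nr name Elk-1 and the Swiss-Prot name Elk-3), of a group whose Elk-1 in mammals acts with serum response factor downstream of MAP kinases, had 597 fragments in BDE-47, against 185 in the control. Its ratio was 3.16 (2.68 to 3.75). A SAM pointed domain Ets factor (CL16417.Contig1), in mammals a regulator of secretory epithelial cells, had 58 fragments in BDE-47 and 23 in the control, a ratio of 2.47 (1.5 to 4.19). Its cluster of 2 contigs had a log2 ratio of 0.90. ETS homologous factor (Unigene17407), an epithelial factor in mammals, had 259 fragments in BDE-47, against 832 in the control, 3.28-fold lower (2.85 to 3.79). A unigene resembling FLI1, a blood and vessel factor in vertebrates (Unigene15466), had 12 fragments in BDE-47 and 46 in the control, 3.91-fold lower (2.04 to 8.12).

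Of 5 regulators from other families, Runx1 was higher and Rel, HES-4, a DMRT factor and FOXM1 were lower. Runt-related transcription factor 1 (Unigene24477), which directs blood cell formation in vertebrates, had 710 fragments in BDE-47, against 289 in the control, a ratio of 2.41 (2.10 to 2.77). It was a single unigene with no sister contig. HES-4 (Unigene73953), a helix-loop-helix repressor and Notch target in vertebrates, had 7 fragments in BDE-47 and 42 in the control. It was 6.13-fold lower (2.73 to 16.2) on few fragments. A doublesex- and mab-3-related factor (Unigene3049), of a family with roles in sexual and neural development, had 118 fragments in BDE-47, against 249 in the control, 2.15-fold lower. A unigene with the Swiss-Prot and KEGG name of forkhead box protein M1, a cell cycle regulator, but the Nr name cyclin-H (Unigene12425) was 2.28-fold lower, with 52 fragments in BDE-47 and 116 in the control.

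The NF-kappaB factor Rel, which drives immune genes in animals once it is released from its inhibitors, again split by contig. CL4986.Contig2 had 177 fragments in BDE-47, against 389 in the control, and was 2.24-fold lower (1.87 to 2.70). CL4986.Contig1, which carried no name that the word search matched and was looked up after the values were seen, had 419 fragments in BDE-47 and 118 in the control. The 2 summed to 596 fragments in BDE-47 and 507 in the control, a log2 ratio of 0.20. Of 6 unigenes named for inhibitors of NF-kappaB or the p105 precursor, 5 were higher and 1 was lower, 12012 fragments in BDE-47 against 5276 in the control. This group was formed after the values were seen, from called unigenes, of which 36.1% past the rule were higher and 63.9% lower over all described ones. Cactus holds NF-kappaB proteins in the cytoplasm in flies. A unigene of that name (Unigene20384) had 699 fragments in BDE-47 and 143 in the control, a ratio of 4.79 (3.99 to 5.77). Inhibitor zeta (CL8666.Contig2) had 3502 in BDE-47 and 952 in the control, with a cluster log2 ratio of 0.70. The p105 contigs of cluster CL18295 split as those of Rel did. CL18295.Contig2 had 300 fragments in BDE-47 and 1291 in the control, CL18295.Contig1 had 1986 in BDE-47 and 822 in the control, and their sum had a log2 ratio of 0.08. Summed by cluster, 2 of the 5 clusters were higher and 3 did not pass.

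**Figure D3:**
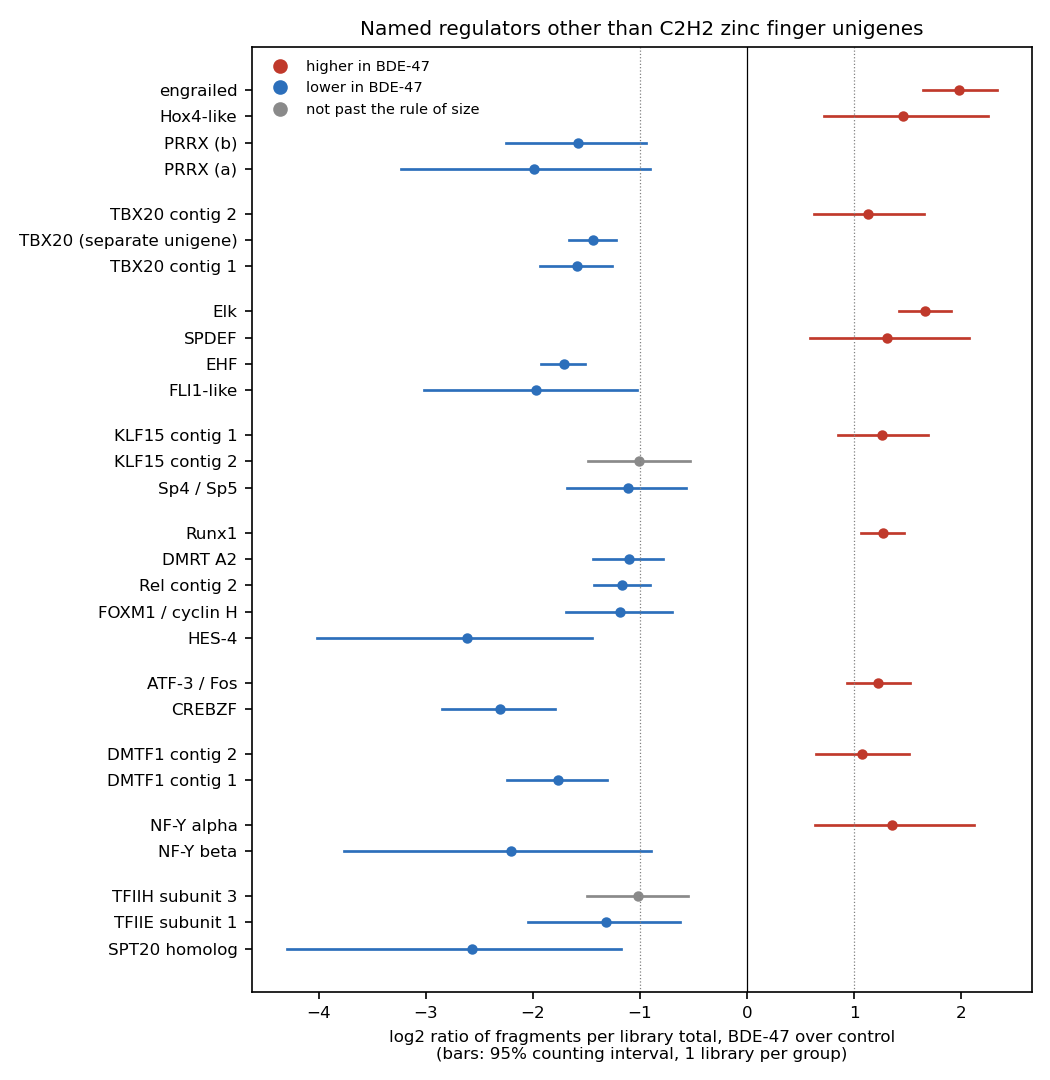
Log2 ratio of fragments per library total, BDE-47 over control (horizontal axis), with its 95% counting interval, for the members described here of families other than C2H2 zinc fingers, grouped by family. Dotted lines mark a 2-fold difference. Engrailed and Elk lie furthest to the right. TBX20, DMTF1 and KLF15 have contigs on both sides of 0, though the KLF15 contig on the left did not pass the rule of size.

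The bZIP members were a pair that went opposite ways. ATF-3 (CL9995.Contig12), a stress-induced factor in mammals whose Nr name is v-Fos/v-Fox, had 332 fragments in BDE-47, against 139 in the control, a ratio of 2.34 (1.91 to 2.87). The other 11 contigs of its cluster did not pass the rule, and the cluster had a log2 ratio of 0.55. CREBZF (CL16806.Contig1), a bZIP protein that binds other regulators, had 38 fragments in BDE-47, against 184 in the control, 4.94-fold lower (3.47 to 7.21). Its cluster had a log2 ratio of -1.07.

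KLF15, which controls glucose and amino acid metabolism in mammalian liver and muscle, had 2 contigs whose ratios were of opposite sign. CL8345.Contig1 had 169 fragments in BDE-47, against 69 in the control, 2.40-fold higher (1.80 to 3.22). CL8345.Contig2 had 58 in BDE-47 and 114 in the control and did not pass the rule. Their sum had a log2 ratio of 0.28. An Sp factor (Unigene13184), of a family that binds GC-rich promoters, with the Nr name Sp4 and the Swiss-Prot and KEGG name Sp5, had 42 fragments in BDE-47 and 89 in the control, 2.16-fold lower.

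DMTF1, a Myb-like factor that binds cyclin D, was named in a pair of contigs that KEGG names transcription termination factor 1, and they split by direction. CL11759.Contig2 had 146 fragments in BDE-47 and 68 in the control, 2.10-fold higher (1.57 to 2.85). CL11759.Contig1 had 52 in BDE-47 and 173 in the control, 3.40-fold lower (2.48 to 4.73). The 2 contigs are of similar length, 2258 and 2199 bases, and summed to a log2 ratio of -0.31. The subunits of NF-Y, a trimer that binds CCAAT boxes, were named in 2 unigenes. NF-Y alpha (Unigene31617) was 2.55-fold higher (1.56 to 4.33), with 60 fragments in BDE-47 and 23 in the control. NF-Y beta (CL12827.Contig2) had 6 in BDE-47 and 27 in the control, and its cluster had a log2 ratio of -0.31.

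None of the general initiation factors and the coactivator subunit SPT20 was higher, while 2 were lower and 1 did not pass. The first subunit of TFIIE (Unigene24744), which helps open the promoter, had 25 fragments in BDE-47 and 61 in the control, 2.49-fold lower (1.54 to 4.14). A subunit of TFIIH (Unigene9574), which holds the helicase and kinase of initiation, had 59 in BDE-47 and 117 in the control and did not pass the rule. An SPT20 contig (CL12302.Contig2), of the SAGA coactivator complex, had 5 in BDE-47 and 29 in the control, but it was only 6.33% of its cluster, which summed to 279 fragments in BDE-47 and 258 in the control.

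The C2H2 zinc finger unigenes, whose repeated fingers each contact a few bases of DNA, numbered 27 in 26 clusters. Of these, 7 were higher, 17 lower and 3 did not pass the rule. Of all members, 23 had the KEGG definition of a KRAB domain zinc finger protein, and as finger arrays resemble each other the names do not identify an orthologue. Among the higher ones, a ZNF585A-like unigene (Unigene32457) had 429 fragments in BDE-47, against 108 in the control, a ratio of 3.89 (3.14 to 4.85). A ZNF498-like contig (CL7375.Contig1) had 63 in BDE-47 and 19 in the control, with a cluster log2 ratio of 0.34. A ZNF808-like unigene with the Nr name PRDM9 (Unigene32139) had 75 in BDE-47 and 26 in the control, and an RBAK-like unigene (Unigene23800) had 72 in BDE-47 and 26 in the control. PRDM9 places recombination breaks in mammalian meiosis, and RBAK is a KRAB repressor in human cells. CL815.Contig1, also with the Nr name PRDM9, had 367 in BDE-47 and 148 in the control, 2.43-fold higher, and its 2 contigs summed to a log2 ratio of 0.96. The strongest ratio among them, 8.57 (3.06 to 33.2) for a ZNF107-like contig (CL269.Contig2), rested on 35 fragments in BDE-47 and 4 in the control.

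Among the lower C2H2 unigenes, a ZNF710-like contig (CL7725.Contig1) had 8 fragments in BDE-47, against 50 in the control, 6.38-fold lower (3.00 to 15.6), and its cluster had a log2 ratio of -2.31. A ZNF845-like contig (CL9813.Contig1) had 11 in BDE-47 and 57 in the control, with a cluster log2 ratio of -0.90. These contigs had fewer than 100 fragments over both libraries. A ZNF227-like contig (CL5758.Contig2) had 16 in BDE-47 and 65 in the control. Its 4-contig cluster summed to 585 in BDE-47 and 689 in the control, mostly from a contig (CL5758.Contig3) that did not pass the rule. A ZNF707-like unigene (Unigene1327) had 95 in BDE-47 and 307 in the control, 3.30-fold lower (2.61 to 4.20). The PR domain factor PRDM14-like contig (CL1687.Contig12), a regulator of pluripotent cells in mice, had 268 in BDE-47 and 541 in the control, 2.06-fold lower (1.78 to 2.40). Its cluster was lower by more than the named contig, with a summed log2 ratio of -1.55, and 12 of its 18 contigs were lower and none higher. A unigene with the Nr name CTCF, a chromatin insulator protein, and the Swiss-Prot name RE1-silencing transcription factor (Unigene25405) had 27 in BDE-47 and 61 in the control. Another CTCF-named unigene that the words did not match (Unigene98) had 60 in BDE-47 and 132 in the control.

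A pair of the ZNF862-like unigenes had large ratios in opposite directions. In Unigene73446 no fragment was counted in BDE-47, against 648 in the control. Against a floor of 3 fragments in the BDE-47 library it was 221-fold lower, and its counting interval began at 179-fold lower. CL11307.Contig1, with the same Swiss-Prot name and the same first Nr name, SH3 and PX domains 2A-like, had 308 fragments in BDE-47, against 9 in the control, a ratio of 33.5 (17.4 to 74.0). Unigene25578 had 97 in BDE-47 and 262 in the control, and Unigene13690 had 30 in BDE-47 and 66 in the control. KEGG named 3 of these 4 unigenes for the nuclear pore protein Nup188, so the databases disagree on what they encode. The 4 unigenes summed to 435 fragments in BDE-47 and 985 in the control.

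Of the 9 remaining unigenes with a database name of another kind, 2 were higher and 7 lower. A PML-like unigene (Unigene36757), named for the organiser of PML nuclear bodies in mammals, had 268 fragments in BDE-47, against 60 in the control, a ratio of 4.37 (3.30 to 5.89). ZPR1, a zinc finger protein that binds translation factors, had contigs in both directions in a cluster of 5. CL14776.Contig3 had 119 in BDE-47 and 46 in the control, CL14776.Contig5 had 164 in BDE-47 and 329 in the control, and the cluster had a log2 ratio of -0.19. The MYND finger contigs of cluster CL1143, with the Swiss-Prot name ANKMY2, were instead lower in all 4 contigs, which summed to 212 fragments in BDE-47 and 892 in the control. The longest of them (CL1143.Contig3) was 5.49-fold lower (4.30 to 7.10), with 77 in BDE-47 and 414 in the control. FHAD1 (CL9095.Contig1), whose forkhead-associated domain binds phosphorylated peptides and not DNA, had 158 in BDE-47 and 360 in the control, with a cluster log2 ratio of -0.51. MORC2, a silencing protein in human cells (Unigene8529), was also lower, with 31 in BDE-47 and 84 in the control. So was a contig named DZIP1 (CL12882.Contig1), which acts at the ciliary base in zebrafish, with 44 in BDE-47 and 93 in the control. This contig held only 15.1% of the fragments of its cluster, which summed to 412 in BDE-47 and 497 in the control. That sum had a log2 ratio of -0.30 and did not pass the rule. KEGG named the contig for the Treacher Collins syndrome protein.

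A further 10 unigenes were named from GATA zinc finger or SPT20 entries of the amoeba Dictyostelium or from a brain-specific homeobox entry of the tree shrew. Their Nr, Swiss-Prot and KEGG names disagreed for most, so their place among transcription factors is doubtful. The most abundant member was among them, CL12178.Contig1, with 1291 fragments in BDE-47, against 3464 in the control, 2.74-fold lower (2.57 to 2.92). Without it the members summed to 8361 fragments in BDE-47 and 11336 in the control, and with it to 9652 in BDE-47 and 14800 in the control. Unigene50087 had 44 fragments in BDE-47 and 0 in the control, and it was the only member with no fragment in the control. Against a floor of 3 fragments in the control library it was 14.4-fold higher, and its counting interval began at 11.2-fold. CL14277.Contig1 had 34 in BDE-47 and 133 in the control, and Unigene1306 had 17 in BDE-47 and 63 in the control. CL3013.Contig4 had 442 in BDE-47 and 195 in the control, and its cluster of 10 contigs had a log2 ratio of 1.96.

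The split by contig recurred. The members fell into 73 clusters, of which 40 were single unigenes by name and 33 were numbered clusters with 124 contigs in all. In 29 of the 33 at least 2 contigs had 20 or more fragments, and in 7 of these 29 (24.1%) 1 contig or more was higher while another was lower. Among clusters of the other described called unigenes this held for 292 of 1565 (18.7%), so that such splits were not confined to transcription factor names. The 7 were the clusters of TBX20, DMTF1, ZPR1, Rel, engrailed, CL815 and CL12178. When all contigs of a cluster were summed, 13 of the 73 clusters were higher, 35 were lower and 25 did not pass the rule. Of the 33 numbered clusters only 3 were higher and 8 lower. In 29 numbered clusters the members were called in 1 direction only. The cluster sum was past the rule in that direction in 11 of these, had the same sign without passing in 15 and had the opposite sign in 3. Each sum includes the members themselves, whose share of its fragments ran from 4.64% (CL878) to 100% (CL17984, of 1 contig). Part of this agreement was therefore fixed in advance.

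**Figure D4:**
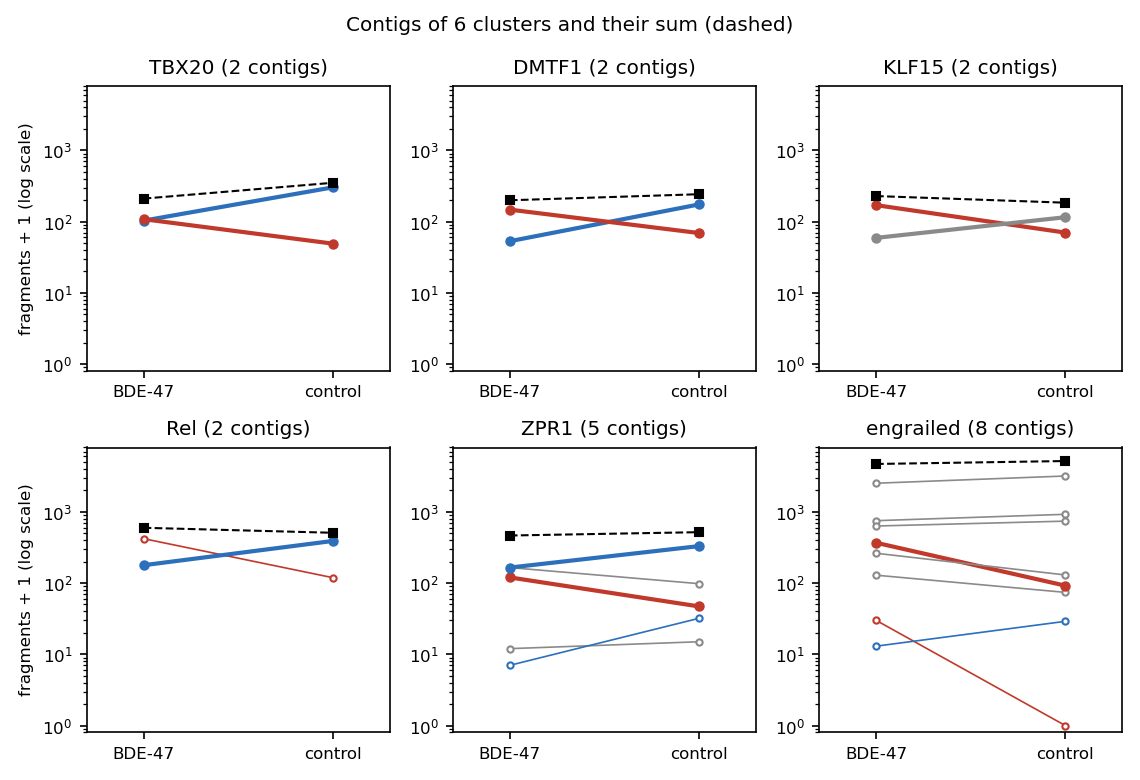
Fragments plus 1 on a log scale (vertical axis) in the BDE-47 and control libraries for every contig of 6 clusters, with filled circles for members, open circles for other contigs, and black squares with a dashed line for the sum. Red lines are higher in BDE-47, blue lines lower, and grey lines did not pass the rule. In all panels but KLF15 a red and a blue line slope opposite ways, while no dashed sum passed the rule.

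Other genes of transcriptional control were taken from lists of words over all 4337 described called unigenes, where 36.1% of those past the rule were higher. Of 40 co-regulator unigenes 8 were higher and 32 lower, 6116 fragments in BDE-47 against 8551 in the control. Summed by cluster, 4 were higher, 23 lower and 13 did not pass. All 8 unigenes named for subunits of Mediator, which links activators to RNA polymerase II, were lower, with 226 fragments in BDE-47 and 1157 in the control. A subunit 12-like contig (CL5939.Contig5) made up much of this sum, with 66 fragments in BDE-47 and 682 in the control, 10.6-fold lower (8.19 to 13.8). Its Swiss-Prot name is putative and its Nr name is a hypothetical protein. The 8 are not 8 separate subunits, as Unigene3562, Unigene11693 and CL13926.Contig1 were all named subunit 24. Summed by cluster, 7 of the 8 were lower and 1 did not pass. The Mediator names were grouped after the values were seen.

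The co-regulator list shared 3 unigenes with the members and 1, a STAT factor, with the list of stress, immune and foreign compound sensors. It also held 8 unigenes with the name SETMAR, that of a histone methyltransferase fused to a transposase, of which 3 were higher and 5 lower. Summed by cluster, 1 was higher, 5 were lower and 2 did not pass. Some of the 8 had a transposase as their Nr or Swiss-Prot name, so the name SETMAR does not establish a methyltransferase. Without the 8 SETMAR unigenes the list had 5 higher and 27 lower. Among the higher, Unigene56984, named SETMAR, had 379 fragments in BDE-47 and 0 in the control. Unigene57541, with the Swiss-Prot name type-2 histone deacetylase 1 but the Nr name of a hypothetical protein, had 2199 in BDE-47 and 1 in the control. Its ratio was 2153 (386 to 85088), and it alone held 2199 of the 6116 fragments of the list in BDE-47. Unigene18058, another SETMAR, had 13 in BDE-47 and 129 in the control.

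Of 14 unigenes on the list of stress, immune and foreign compound sensors, 8 were higher and 6 lower, and after summing by cluster 2 were higher, 2 lower and 8 not past the rule. STAT factors, which carry cytokine signals to the nucleus, were named in 3 unigenes, grouped after the values were seen. All 3 were lower, with 671 fragments in BDE-47 and 4475 in the control, where 63.9% of the described called unigenes past the rule were lower. Summed by cluster, 2 were lower and 1, that of CL14467.Contig1, did not pass, at a log2 ratio of -0.88. The most abundant (CL19907.Contig3) had 487 in BDE-47 and 3804 in the control, 7.98-fold lower (7.26 to 8.78), and its 5 contigs had a log2 ratio of -2.79. A STAT5B-like contig (CL10073.Contig2) had 117 in BDE-47 and 500 in the control, and another (CL14467.Contig1) had 67 in BDE-47 and 171 in the control. No unigene of the list was named for the aryl hydrocarbon receptor, the erythroid factor Nrf2 or a hypoxia-inducible factor, and unigenes outside the authors' calls carried no name.

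Unigenes named for markers of other tissues were also in the authors' table, and their part in the values above was not tested. As they too were drawn from called unigenes, that they differed was fixed by the selection, and their directions stand beside 36.1% higher and 63.9% lower over all described called unigenes past the rule. Of 19 unigenes named for mantle and shell matrix proteins, 15 were higher and 3 lower, 50439 fragments in BDE-47 against 2186 in the control, with 4 of them at 0 in the control. Of 78 blood cell and immunity unigenes 42 were higher and 31 lower, 18179 fragments in BDE-47 against 13037 in the control. Of 33 nerve unigenes 8 were higher and 23 lower, 5935 in BDE-47 against 13599 in the control. Of 33 cilia and sperm unigenes 4 were higher and 28 lower, 3599 in BDE-47 against 6187 in the control, and of 24 muscle unigenes 7 were higher and 16 lower, 3039 in BDE-47 against 5243 in the control. Ovary names gave 14 higher and 8 lower of 25, 8176 in BDE-47 against 10473 in the control, with 10 at 0 in the control. Of these, 1 of the higher is the member CL7375.Contig1, matched by the word oocyte in its Nr zinc finger name and not a marker of the ovary. Digestive enzymes, the markers of the labelled tissue, were counted in both libraries. Of 39 such unigenes 24 were higher and 11 lower, 16728 fragments in BDE-47 against 21801 in the control, with 1 at 0 in BDE-47 and 7 at 0 in the control.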

How the data were processed

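Poly(A) RNA of 1 library per group was sequenced by Illumina HiSeq, per the labels' protocols. The submitters' processing notes name CASAVA 1.5. Neither assembler nor aligner nor counter is named in the sources used here. Per the file headers, the deposited values are fragment counts and FPKM for every unigene, and the FPKM were recomputed from the counts to within rounding. The authors' log2 ratio divides the BDE-47 by the control FPKM and, by the values, sets 0 to 0.001. The authors' deposited p-value and FDR come from an unnamed test and were used only through the table of called unigenes, all with an absolute log2 ratio of at least 1 and an FDR of at most 0.001. The deposited database alignment score and expectation value were not used in any result.

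With 1 library per group no difference was tested. Intervals are exact 95% conditional binomial (Clopper-Pearson) intervals of the fragment ratio, scaled by the library totals (Python 3.11.15, scipy 1.17.1). They cover counting error only, and can be too narrow even for that, as PCR copies are not independent molecules. Folds against 0 use a floor of 3 fragments per library. The calling rule was tested on simulated counts that varied by counting error only, with differences placed in unigenes of higher count. That test does not bear on variation between clams or libraries, nor on members of few fragments. TMM factors came from edgeR 4.0.16.

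The members, word lists and roles were chosen with earlier results of these data known. Named are the 10 highest and 10 lowest members past the rule with at least 50 fragments, 1 per description, up to 2 in each direction per family, the 5 with most fragments, and up to 2 in each direction with at least 100 fragments in each pathway list. Other members named were chosen after their values were seen. The word list for nuclear receptors (27 unigenes, 11 higher, 13 lower) matched "coupled" in transporter names and is not described, and the general factor list held Unigene25578 by a match in a species name. Unigenes in numbered clusters may be variants of 1 gene that the authors' counting could split. Members not named are in the counts, and 1 member that the rule chose is not reported here.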

Additional observations from a re-analysis of the deposited data

How the results depend on the processing

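No paired analysis was possible because each group has 1 library and the labels give no replicate numbers. Counts of 22 higher and 51 lower members stayed within 1.5 times of these, and the median log2 ratio near -1.18, under TMM and median-of-ratios scaling, no floor or a floor of 100 fragments, 1 unigene per description, other readings of the names, known regulators only (17 and 34) and leaving out clusters with members of both directions (19 and 48). The last 2 were chosen after seeing the data. With a pseudocount of 1 FPKM 16 were higher and 32 lower, with a median of -0.97, which follows from members of few FPKM. A fold of 4 left 4 higher and 12 lower. With contigs summed by cluster 13 were higher, at a median of -1.02.

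Among the 35 members that the naming rule chose, TMM scaling took 1 under the rule and a pseudocount of 1 took 8. Of 18 in clusters of several contigs, the cluster sum stayed past the rule for 8, kept its sign without passing for 8 and reversed for 2, also without passing: CL12984.Contig2 (TBX20) at -0.77 and CL878.Contig4 (engrailed) at -0.17. Each of these sums includes the named member. Depth limits 27 members with fewer than 100 fragments.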
